A study of Homo sapiens with 6 samples.

Results

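CD36 and 9 further genes for the uptake and binding of fatty acids and related lipids were followed in KPL4 cells, an established line of human inflammatory breast cancer. Of 33578 genes named by 1 symbol, these 10 were taken by symbol. The set was chosen by the log2 difference of CD36 between the groups on these same arrays, with the values of the other 9 known as well. A gene with more than 1 probe set was read from its brightest, by the mean over all 6 arrays. Total RNA of 3 ERβ knockout samples and 3 control samples was hybridised, 1 array per sample. ERβ is estrogen receptor beta, the product of ESR2, and the knockout samples carried a CRISPR/Cas9 disruption of it. The control samples came from KPL4 cells with the genotype label Control. Both groups grew in the same Ham's F12 medium with fetal bovine serum, HEPES, insulin and hydrocortisone. Replicates are labelled biological. Whether the knockout line is clonal, how the control line was handled and whether replicates were separate cultures are not stated, so p-values reflect only the spread among these 6 samples, some of which may be technical. In a bulk extract, a change in every cell and a change in the share of cells that carry a transcript cannot be told apart.

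Long-chain fatty acids enter cells partly by diffusion and partly with the help of membrane proteins. CD36, also called fatty acid translocase, is a class B scavenger receptor that binds fatty acids, oxidised lipoproteins and thrombospondin. Its relatives are SCARB1, the receptor for selective lipid uptake from high-density lipoprotein, and SCARB2, a lysosomal membrane protein that carries glucocerebrosidase. The SLC27A genes code for fatty acid transport proteins, which join uptake to activation with coenzyme A. The FABP genes code for small cytosolic proteins that bind fatty acids: FABP3 is the heart and muscle form, FABP4 the adipocyte form and FABP5 the epidermal form.

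The arrays gave log2 signals after RMA, a method that corrects background, normalizes between arrays and reduces the probes of a set to 1 value. A gene is called bright here when its mean over the 6 arrays lay above 5.05, the median of the genes tested, and dim otherwise. Dim signals may be no more than background. Knockout arrays correlated with control arrays at 0.986 to 0.988 (Pearson's r across bright genes, which are not independent replicates), and arrays within a group at 0.995 to 0.997. ESR2 was dim, at 3.90, 4.08 and 4.01 on the knockout arrays and 3.99, 3.69 and 4.16 on the control arrays, so it did not check the labels. Probes outside an edited stretch also need not show the edit. Of the 10 genes, 8 were bright and 2, FABP3 and FABP4, were dim. A call means an adjusted p under 0.05 in limma, Benjamini-Hochberg adjusted over all genes tested.

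RefSeq (GRCh38.p14) gives promoter windows for 7 of the 10 genes, 12 windows in all, each with 250 bases before and 50 bases after a transcription start. CD36 has 6 of them, all on the plus strand of chromosome 7, and the array values do not tell which start was used. The CD36 windows are shown because this gene differed most, and that of SCARB2 beside them because it is a relative with 1 listed start. Starts 1 and 5 of CD36 are the 2 that hold a match. Capitals mark the letters TATAAA (CD36) or GGGCGG (SCARB2) on either strand.
CD36 start 1, chr7:80601957-80602256, plus strand: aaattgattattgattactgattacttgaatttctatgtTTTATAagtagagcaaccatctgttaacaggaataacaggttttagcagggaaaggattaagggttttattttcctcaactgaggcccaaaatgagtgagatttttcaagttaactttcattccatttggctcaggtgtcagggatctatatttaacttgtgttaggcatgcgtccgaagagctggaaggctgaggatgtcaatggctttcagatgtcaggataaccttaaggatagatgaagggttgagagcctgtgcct
CD36 start 5, chr7:80645999-80646298, plus strand: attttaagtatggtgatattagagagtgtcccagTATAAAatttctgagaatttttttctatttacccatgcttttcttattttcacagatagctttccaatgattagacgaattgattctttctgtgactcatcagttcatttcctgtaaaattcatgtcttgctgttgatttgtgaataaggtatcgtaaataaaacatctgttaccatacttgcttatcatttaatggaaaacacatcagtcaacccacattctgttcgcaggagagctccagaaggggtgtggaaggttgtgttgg
SCARB2, chr4:76213775-76214074, minus strand: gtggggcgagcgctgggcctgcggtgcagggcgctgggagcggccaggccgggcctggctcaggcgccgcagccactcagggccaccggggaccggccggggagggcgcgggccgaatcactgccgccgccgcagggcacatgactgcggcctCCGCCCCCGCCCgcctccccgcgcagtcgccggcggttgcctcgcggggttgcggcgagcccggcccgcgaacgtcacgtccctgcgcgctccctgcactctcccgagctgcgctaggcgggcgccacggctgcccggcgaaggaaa
The CD36 windows were poor in G and C, with 35% to 43.7% of bases, against a median of 58.7% over 35116 windows of the same length. Windows of FABP3, SCARB2 and SLC27A1 to SLC27A4 held 65.0% to 79.3%. The letters AGGTCA, which many nuclear receptors bind, occurred on neither strand in any of the 12 windows, and 13.8% of all windows held them. The estrogen response element, GGTCA and TGACC with 3 bases between them, was found in 0 of the 12 and in 0.057% of all windows. The DR1 element bound by PPAR with RXR, AGGTCA repeated after 1 base, was found in 0 of the 12 and in 0.0228% of all. The estrogen response element shares letters with AGGTCA, and DR1 contains it. The GC box letters GGGCGG were in 0 of 6 CD36 windows, with 5 matches in the SLC27A1 window, 4 in SLC27A3, 2 each in SLC27A4 and SCARB2, 1 in SLC27A2 and 0 in FABP3. Of all windows, 45.0% held GGGCGG and 11.5% held TATAAA. A match is a run of letters, not a site, and its absence says only that these letters are not in the window.

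CD36 was the gene around which the list was drawn up, since its difference was known to be the largest among all genes tested, so its values are given as a description without a test. Its log2 signal was 13.66, 13.68 and 13.64 on knockout arrays 1, 2 and 3, against 6.83, 7.11 and 6.78 on control arrays 1, 2 and 3. The groups lay far apart, and the knockout arrays were close together, with 13.66 ± 0.02 in knockout and 6.91 ± 0.18 in control cells (SD, n = 3 each). The difference was 6.75 (SE 0.13), or 108-fold on the scale of the deposited values. Both means were bright and lay below 16, above which 0.567% of deposited values reach beyond a plain 16-bit log2 scale. The difference lay between 6.67 and 6.85 in the 13 other settings, including the 6 in which 1 array was left out. None of these settings could turn a gap of this size, so the range is a description as well. One probe set carried the symbol, and its transcript isoforms were not resolved.

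**Figure D1:**
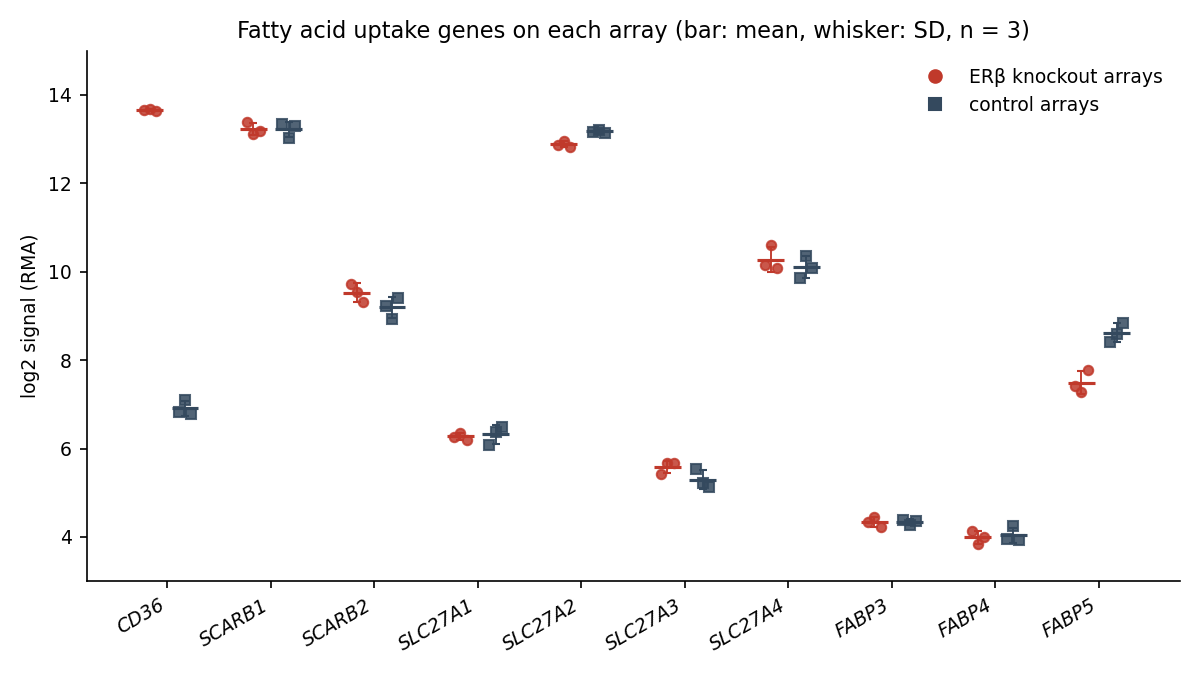
Log2 signal of the 10 genes on each array, with knockout arrays as circles on the left of each gene and control arrays as squares on its right; bars are means and whiskers SDs (n = 3). CD36 stands at 13.66 in knockout and 6.91 in control cells, FABP5 is lower on all knockout arrays, and SLC27A2 is lower by a small step, while the arrays of the groups overlap for the other 7 genes.

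Neither relative of CD36 was called. SCARB1 was bright and nearly equal in the groups, at 13.38, 13.13 and 13.18 on knockout arrays and 13.34, 13.02 and 13.31 on control arrays. Its difference was 0.01 (95% interval -0.30 to 0.31, limma adjusted p = 0.99). The interval spans at most a 1.24-fold difference either way, and the sign of so small a value changed with the scaling, to -0.09 after repeated quantile normalization. SCARB2 gave 9.73, 9.54 and 9.31 on knockout arrays and 9.22, 8.94 and 9.41 on control arrays, with overlap between the groups. Its difference of 0.33 (95% interval -0.02 to 0.69) did not pass (limma adjusted p = 0.28), and the interval allows up to a 1.61-fold higher level. Intervals here and below are those of the single gene, not widened for the number of genes.

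None of the 4 fatty acid transport proteins was called. SLC27A2, a transporter and very-long-chain acyl-CoA synthetase best known from liver and kidney, was lower on every knockout array, at 12.87, 12.96 and 12.82, against 13.17, 13.20 and 13.15 on control arrays. The step was small, -0.29 (95% interval -0.55 to -0.03) or 1.22-fold lower, and it did not pass over all genes (limma adjusted p = 0.19). The limma adjusted p was 0.25 to 0.36 with 1 array left out, and 0.052 to 0.49 over all 13 other settings. Groups that do not overlap were common on these arrays, in 25.3% of genes, with the knockout arrays lower in 10.3% of genes and higher in 14.9%. SLC27A3 gave 5.43, 5.67 and 5.67 on knockout arrays and 5.53, 5.22 and 5.14 on control arrays, close to the border of bright genes. Its difference of 0.29 (95% interval -0.03 to 0.61) did not pass (limma adjusted p = 0.30). SLC27A4, a broadly present form that is needed for the skin barrier, gave 10.14, 10.60 and 10.08 on knockout arrays and 9.87, 10.36 and 10.09 on control arrays, a difference of 0.17 (95% interval -0.22 to 0.56, limma adjusted p = 0.68). Its within-group SDs of 0.29 in knockout and 0.24 in control cells were larger than that difference. SLC27A1, the insulin-responsive form of muscle and fat, gave 6.27, 6.36 and 6.19 on knockout arrays and 6.09, 6.38 and 6.49 on control arrays, a difference of -0.04 (95% interval -0.35 to 0.26, limma adjusted p = 0.91) whose sign turned without control replicate 3 (0.04).

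FABP5 fell in knockout cells, the one call among the 9 genes other than CD36. Its log2 signal was 7.42, 7.27 and 7.78 on knockout arrays and 8.42, 8.60 and 8.84 on control arrays, with no overlap. The means were 7.49 ± 0.26 in knockout and 8.62 ± 0.21 in control cells (SD, n = 3 each), and the difference was -1.13 (SE 0.17, 95% interval -1.50 to -0.76), a 2.19-fold fall (limma adjusted p = 0.0016). Of all genes tested, 8.01% were called, 4.81% as higher and 3.21% as lower, and 1 lower call among these 9 genes is not far from those shares. The balance of directions over all genes depended on scaling: 1614 were higher and 1077 lower as deposited, against 1251 higher and 1306 lower after repeated quantile normalization. A fall of at least 2-fold was called in 0.822% of genes and a rise of that size in 1.13%. The call held in all 13 other settings, with adjusted p from 0.00025 to 0.015. The median difference of the 10 genes was 0.00, beside 0.02 over all genes tested.

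FABP5 was also the one gene of the 10 with a second probe set annotated to its symbol. The identifier of that set carries the number 11 and that of the set used the number 8, while RefSeq places FABP5 on chromosome 8. Such numbers matched the RefSeq chromosome for 99.8% of 31183 genes compared, so the second set probably lies at another locus and is not a repeat measurement of FABP5. Over the 6 arrays the probe set used averaged 8.05 and the second 7.47. The second gave 6.96, 6.84 and 7.28 on knockout arrays and 7.96, 7.93 and 7.87 on control arrays, again without overlap. Its difference was -0.89 (SE 0.15), with a limma adjusted p of 0.024 when all probe sets were tested. Processed copies of FABP5 lie across the genome, and 12 of them had probe sets of their own, 3 bright and 9 dim. These copies were looked up after the FABP5 values had been seen. FABP5P1 was lower too, at 7.79, 8.02 and 8.25 on knockout arrays and 9.71, 9.36 and 9.43 on control arrays (difference -1.48, SE 0.16, limma adjusted p = 0.00016). FABP5P10 was called lower at a dim level (difference -0.67, SE 0.13, limma adjusted p = 0.0087). FABP5P2, which was bright, differed by -0.78 (SE 0.24, limma adjusted p = 0.073) and FABP5P4, bright as well, by 0.13 (limma adjusted p = 0.68). The median over the 12 copies was -0.15, and the 10 copies other than FABP5P1 and FABP5P10 were not called. Copies of nearly the same sequence can share probes or transcripts, so which of them each probe set measured is uncertain, and this uncertainty extends to FABP5 itself.

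**Figure D2:**
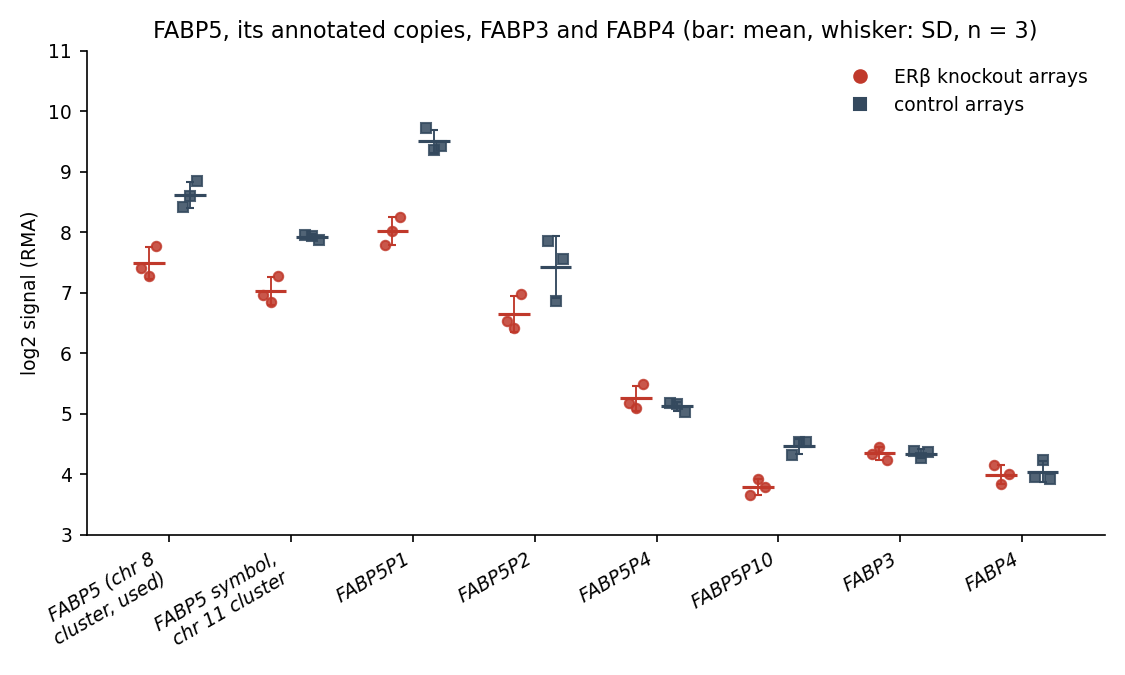
Log2 signal of the FABP5 probe set used, of the set numbered for chromosome 11 that carries the same symbol, of 4 of the annotated copies, and of FABP3 and FABP4, with knockout arrays (circles) left of control arrays (squares), means as bars and SDs as whiskers (n = 3). The FABP5 set, the chromosome 11 set, FABP5P1 and the dim FABP5P10 are lower on every knockout array, while FABP3 and FABP4 lie near 4 in both groups.

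FABP3 and FABP4 were dim in both groups. FABP3 gave 4.34, 4.46 and 4.23 on knockout arrays and 4.39, 4.26 and 4.37 on control arrays, and its difference was 0.00 (95% interval -0.27 to 0.28, limma adjusted p = 0.995). FABP4, a marker of adipocytes, gave 4.15, 3.84 and 3.995 on knockout arrays and 3.96, 4.24 and 3.92 on control arrays, a difference of -0.05 (95% interval -0.36 to 0.27, limma adjusted p = 0.91). At these levels a low transcript and no transcript cannot be told apart, so the lack of a call does not show equal transcript levels. The sign of either value changed in some settings.

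**Figure D3:**
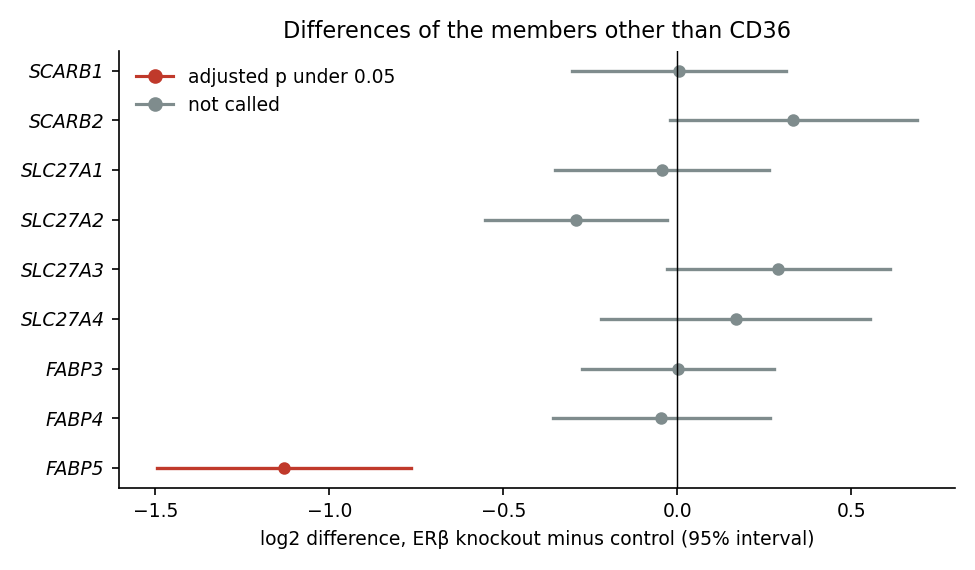
Log2 difference, knockout minus control, of the 9 genes other than CD36, with the 95% interval of each from the fit across all genes. FABP5, at -1.13, is the one called gene, and SLC27A2 at -0.29 has an interval that ends at -0.03 without passing the adjustment over all genes.

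Other genes of lipid uptake and handling were read from lists that leave out the 10 genes. Of 25 measured genes for fatty acid uptake and binding, 2 rose, 1 fell and 22 were not called, and the median difference was 0.09. The list had 12 bright genes and 12% called, beside 8.01% of all genes and 14.8% of bright genes. After repeated quantile normalization 1 was higher and 1 lower. FFAR4, a cell surface receptor for long-chain fatty acids, rose 1.94-fold, with means of 7.10 ± 0.37 in knockout and 6.14 ± 0.19 in control cells (limma adjusted p = 0.0087, and 0.061 with all probe sets tested). ACBD3, a Golgi protein with an acyl-CoA binding domain, rose 1.49-fold (limma adjusted p = 0.044), a call lost without knockout replicate 1 or 2 or any 1 control array (adjusted p = 0.074 to 0.16) and after quantile normalization (adjusted p = 0.076). CAV1, the coat protein of caveolae, fell 1.87-fold, to 9.79 ± 0.05 in knockout cells, against 10.69 ± 0.05 in control cells (SD, n = 3 each, limma adjusted p = 0.00073).

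Of 21 acyl-CoA synthetases and thioesterases, 3 rose, 1 fell and 17 were not called (median difference 0.11). That is 19.0% of the list, of which 15 genes were bright. Called were 8.01% of all genes, 14.8% of bright genes and 17.8% of bright protein-coding genes, so the share was near the last of these. The balance changed with scaling, to 1 higher and 2 lower after quantile normalization and 2 and 2 with equal array medians. ACOT4, a peroxisomal thioesterase, rose 2.18-fold (limma adjusted p = 0.0038), and ACSF2, a mitochondrial synthetase, 1.57-fold (limma adjusted p = 0.029). ACOT1, the cytosolic relative of ACOT4, rose at least 1.43-fold, a bound, since its control mean of 5.01 was dim (limma adjusted p = 0.049). ACOT9, a mitochondrial thioesterase, fell 1.40-fold (limma adjusted p = 0.030). ACSF2 lost its call without knockout replicate 2 or 3 or control replicate 2 or 3 (adjusted p = 0.057 to 0.12), ACOT1 without knockout replicate 1 or 2 or control replicate 1 or 2 (0.097 to 0.19), and ACOT9 whichever array was left out (0.065 to 0.13). After quantile normalization ACSF2 (adjusted p = 0.064) and ACOT1 (adjusted p = 0.062) were not called. The list's count was 1 without knockout replicate 2 or control replicate 2, and 2 without control replicate 1 or 3.

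Of 28 genes of fatty acid oxidation, 2 rose, 1 fell and 25 were not called, with a median difference of 0.16. The median was 0.02 over all genes, 0.06 over bright genes and 0.07 over bright protein-coding genes. The share called was 10.7%, and 25 of the 28 were bright. That share lay above the 8.01% of all genes and below the 14.8% of bright genes and 17.8% of bright protein-coding genes. Under both other scalings 2 were higher and 2 lower. ACADM, the medium-chain acyl-CoA dehydrogenase, rose 1.69-fold, to 14.46 ± 0.09 in knockout cells, against 13.71 ± 0.15 in control cells (limma adjusted p = 0.0044). CPT2, the inner carnitine palmitoyltransferase, rose 1.48-fold (limma adjusted p = 0.014), a call lost when knockout replicate 1 or 2 was left out (adjusted p = 0.060 and 0.054). ACAD9, a dehydrogenase that also helps to assemble respiratory complex I, fell 1.75-fold (limma adjusted p = 0.0095, and 0.067 with all probe sets tested). The count of 3 calls was 6 among bright genes alone and 8 when the moderation was robust and followed intensity.

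Among 33 genes of triglycerides and lipid droplets, 3 rose, 1 fell and 29 were not called, or 12.1% called, and the median difference was 0.10. The list had 18 bright genes, and the share called was 8.01% over all genes and 14.8% over bright genes. PNPLA2, the adipose triglyceride lipase, rose 1.78-fold (limma adjusted p = 0.0025). PLIN3, a droplet coat protein, rose 1.48-fold (limma adjusted p = 0.017), and HILPDA, a hypoxia-inducible inhibitor of that lipase, 1.37-fold (limma adjusted p = 0.049). GPAT3, which starts glycerolipid synthesis, fell 2.69-fold, to 8.26 ± 0.38 in knockout cells, against 9.68 ± 0.22 in control cells (limma adjusted p = 0.00090). HILPDA lost its call whichever array was left out (adjusted p = 0.062 to 0.18) and under both other scalings (0.10 and 0.058), and PLIN3 without knockout replicate 1 or 2 or control replicate 1 (0.057 to 0.077). The list's count of 4 was 2 without knockout replicate 1 or 2 or control replicate 1.

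Ligands, partners and modifying enzymes of CD36 held more calls, 3 higher and 7 lower of 28 measured, or 35.7%. Of the 28, 22 were bright. Called were 8.01% of all genes, 14.8% of bright genes and 17.8% of bright protein-coding genes. The list's median was 0.02. Like the others, the list was drawn up with earlier results of these data known, so its share is a description. Its count ran from 7 to 10 with 1 array left out (1 to 3 higher and 5 to 7 lower), and was 6 with all probe sets tested. LYN, a Src family kinase that signals with CD36, fell 2.69-fold, with 10.65 ± 0.02 in knockout and 12.08 ± 0.18 in control cells (SD, n = 3 each, limma adjusted p = 6.6e-05). TLR6, which pairs with TLR4 and CD36 in the response to oxidised lipids, fell 2.58-fold (limma adjusted p = 0.00062). THBS1, thrombospondin 1, a secreted CD36 ligand, fell 2.06-fold, to 14.42 ± 0.04 in knockout cells, against 15.46 ± 0.10 in control cells (limma adjusted p = 0.00033). SAA1, an acute-phase apolipoprotein that scavenger receptors bind, rose 3.58-fold (limma adjusted p = 4.7e-05). ZDHHC4 and ZDHHC5, the palmitoyltransferases known to modify CD36, rose 1.70-fold (limma adjusted p = 0.010) and 1.47-fold (limma adjusted p = 0.015). The ZDHHC4 call was lost without knockout replicate 1 (adjusted p = 0.054) and that of ZDHHC5 without knockout replicate 1 or 2 or control replicate 1 (0.053 to 0.066).

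Of 19 other scavenger receptors, 1 rose and 1 fell, or 10.5% called, beside 8.01% of all genes. OLR1, the lectin-like receptor for oxidised low-density lipoprotein, rose 1.40-fold (limma adjusted p = 0.036), a call lost without any 1 array other than control replicate 2 (adjusted p = 0.070 to 0.13). CD163L1, a cysteine-rich scavenger receptor, fell 2.20-fold (limma adjusted p = 0.00058). The count of 2 was 1 without any 1 array other than control replicate 2.

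Of 32 PPAR, RXR and LXR factors and their known targets, 3 rose, 0 fell and 29 were not called, and the median difference was 0.12. The share called, 9.4%, was close to the 8.01% of all genes and below the 14.8% of bright genes. By unadjusted limma p under 0.05, 8 were higher and 2 lower. No share over all genes was counted for unadjusted p, here or below. PPARG, a nuclear receptor that drives CD36 in macrophages and fat, gave 12.14, 12.11 and 12.21 on knockout arrays and 11.82, 11.76 and 11.81 on control arrays. Its groups did not overlap, and the difference of 0.36 (95% interval 0.10 to 0.62) did not pass (limma adjusted p = 0.10). The difference did pass among bright genes alone (adjusted p = 0.040) and when the moderation was robust and followed intensity (adjusted p = 0.026). PPARA differed by -0.11 (limma adjusted p = 0.81) and PPARD by 0.05 (limma adjusted p = 0.89). TXNIP, an inhibitor of thioredoxin, rose 2.54-fold (limma adjusted p = 0.00035), and ABCA1, a cholesterol exporter and LXR target, 2.07-fold (limma adjusted p = 0.0038). NCOA1, a coactivator of nuclear receptors, rose 1.49-fold (limma adjusted p = 0.026), a call lost without any 1 array other than control replicate 3 (adjusted p = 0.060 to 0.11).

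**Figure D4:**
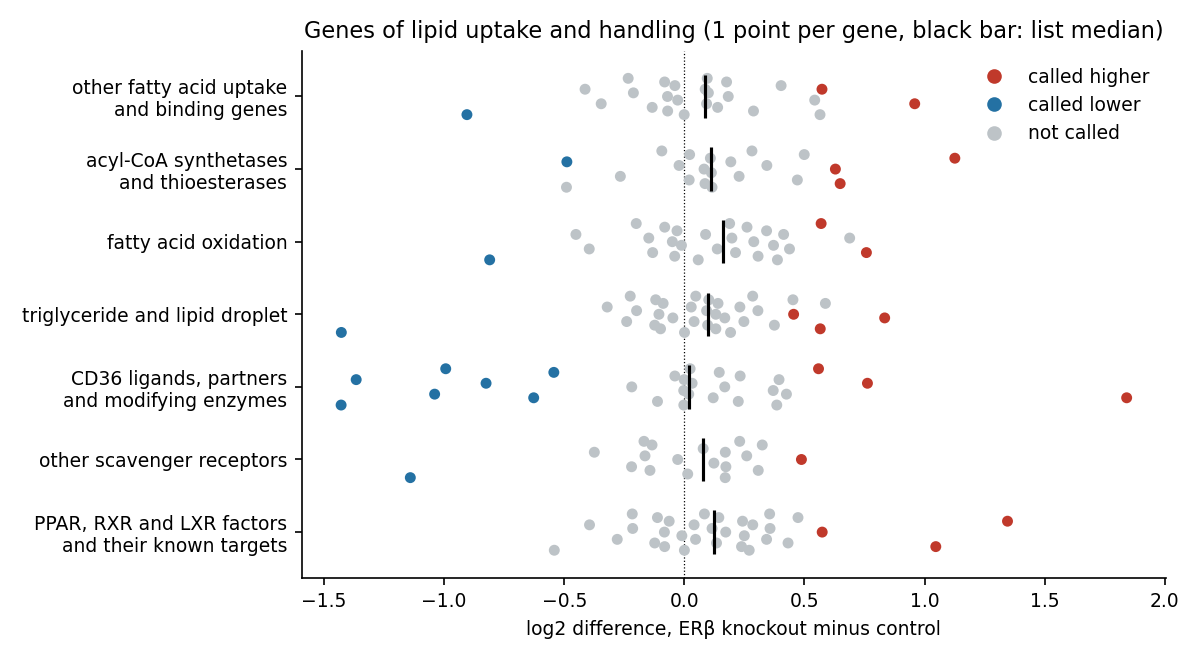
Log2 difference, knockout minus control, of each measured gene in 7 lists of lipid uptake and handling, with 1 point per gene and the list median as a black bar. Called genes lie on both sides in 6 lists and on the higher side alone in the PPAR, RXR and LXR list, and the list medians run from 0.02 to 0.16.

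CD36 is known from adipocytes, macrophages, platelets, capillary endothelium and muscle, so markers of those cell types were read too. Of 13 adipocyte markers 11 were dim, including ADIPOQ and PLIN1, and 0 were called by limma (2 higher and 0 lower at an unadjusted p under 0.05). The mean over the list was 4.78 to 4.85 on knockout arrays and 4.74 to 4.78 on control arrays, and its largest difference was that of PLIN4, a dim droplet coat gene, at 0.45 (limma adjusted p = 0.054). The 10 platelet markers, 7 of them dim and 0 called (0 higher and 1 lower unadjusted), averaged 4.17 to 4.22 on knockout and 4.20 to 4.33 on control arrays, with PF4, a dim platelet chemokine gene, at a difference of -0.50 (limma adjusted p = 0.061). The 14 endothelial markers, 9 dim and 0 called (1 higher and 1 lower unadjusted), averaged 4.91 to 5.00 on knockout and 4.86 to 4.89 on control arrays, with ESAM, a dim adhesion gene, at -0.42 (limma adjusted p = 0.056). Of 15 monocyte and macrophage markers, averaging 5.14 to 5.17 on knockout and 5.08 to 5.13 on control arrays, CD68 alone was called, 1.72-fold higher (limma adjusted p = 0.0042), while CD14 and CSF1R were dim. At an unadjusted p under 0.05, 1 marker of that list was higher and 1 lower, CD163, at a difference of -0.37 without overlap (limma adjusted p = 0.13), which is named after its value was seen. Of 14 muscle markers, averaging 5.34 to 5.46 on knockout and 5.07 to 5.30 on control arrays, MB, myoglobin, was called, 1.92-fold higher (limma adjusted p = 0.0025), and 10 were dim (3 higher and 0 lower unadjusted). All 18 measured luminal epithelial markers were bright, averaging 12.87 to 12.97 on knockout and 12.65 to 12.68 on control arrays. Of these 4 rose and 14 were not called (7 higher and 3 lower unadjusted), or 22.2% called. Of bright genes 14.8% were called, and of bright protein-coding genes 17.8%. After quantile normalization 4 luminal markers were higher and 2 lower, and with equal medians 4 and 1. The 4 that rose included the tight junction gene CLDN3 (2.59-fold), the keratin gene KRT19 (2.37-fold) and the transcription factor gene GATA3 (2.30-fold), each with a limma adjusted p of 0.00015 or less. The 3 lower unadjusted were FOXA1 (difference -0.45), GRHL2 (-0.40) and CLDN7 (-0.33), each without overlap. Higher unadjusted but not called were ERBB2 (difference 0.37), ERBB3 (0.33) and MUC1 (0.33), also each without overlap. EPCAM (0.04), CDH1 (0.02) and KRT7 (-0.07) were close to equal. These uncalled luminal genes are named after their values were seen. The list means of the knockout arrays lay above those of the control arrays. The list's median difference was 0.10, beside 0.06 over bright genes, and whether the list moved as a whole was not tested. The part of the shifts of CD68, MB and single luminal genes in the CD36 and FABP5 values was not tested.

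Genes beside CD36 on chromosome 7 showed no step like its own. Of the 20 nearest bright protein-coding genes, 10 on each side in RefSeq order, 2 were called higher and 0 lower, and their median difference was 0.13, beside 0.07 over all 11906 bright protein-coding genes, of which 17.8% were called. The nearest bright ones were GNAI1, a G protein subunit (difference -0.47, limma adjusted p = 0.058), and PHTF2 (0.03) on one side, and SEMA3C, a secreted guidance protein (-0.02), and CACNA2D1, a calcium channel subunit (-0.39, limma adjusted p = 0.091), on the other. SEMA3C was bright and close to equal, at 14.92 ± 0.04 in knockout and 14.94 ± 0.17 in control cells (SD, n = 3 each). The adjacent GNAT3 was dim in both groups, at 4.37 in knockout and 4.16 in control cells. The 2 called neighbours, picked out after their values were seen, were UPK3B (difference 1.40) and CROT, the peroxisomal carnitine octanoyltransferase (difference 0.84, limma adjusted p = 0.0084). Around FABP5 on chromosome 8, 5 of 20 neighbours were called higher and 1 lower, with a median of 0.02, and those nearest, ZNF704 (0.09) and IMPA1 (-0.17), were not called. Around the other genes the medians of the 20 neighbours ran from 0.01 for SCARB1 to 0.18 for SLC27A4.

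**Figure D5:**
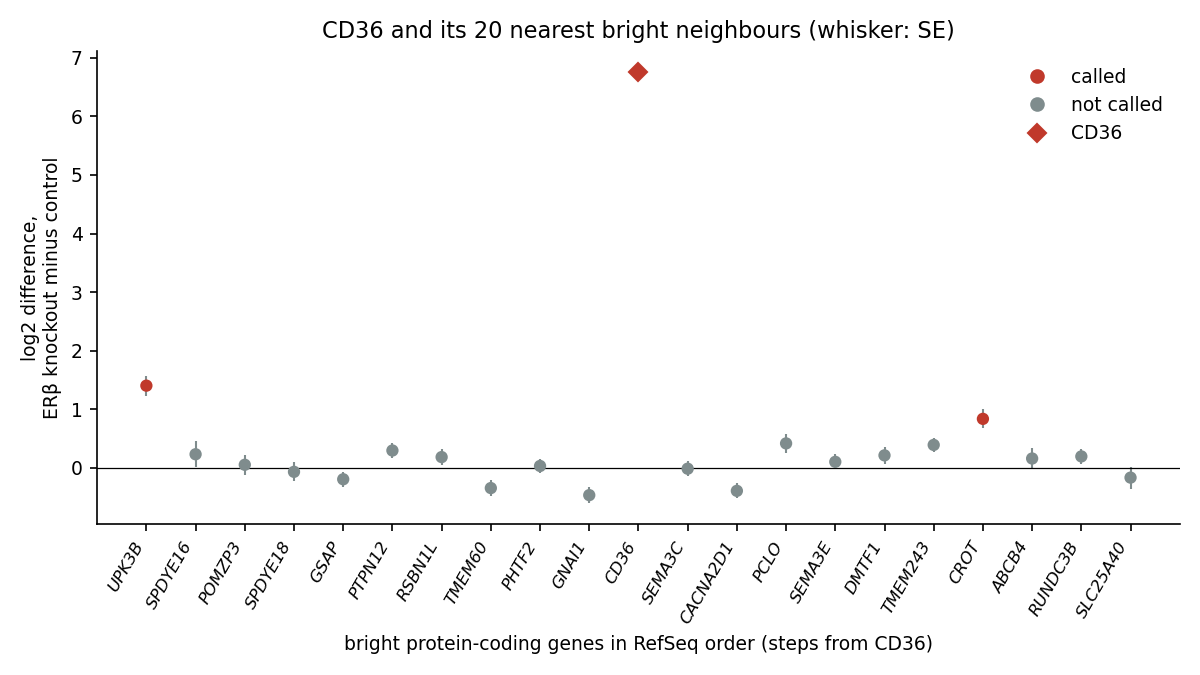
Log2 difference, knockout minus control, of CD36 and its 20 nearest bright protein-coding genes in RefSeq order, with SEs as whiskers. CD36 stands at 6.75 and its neighbours between -0.47 and 1.40, with UPK3B and CROT called.

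Likeness to CD36 across the 6 arrays was measured among 634 other bright genes whose group means differed by at least 1 on the log2 scale. With 6 arrays in 2 groups this mostly restates the group difference, and 96 of the 634 genes had Pearson's r above 0.99. The closest were the probe sets annotated CDR1-AS, CLEC3A, CAMK2N1, GPX3, a secreted glutathione peroxidase, and BPIFB1, a secreted airway protein, each with r of 0.999 to 1.00. The CDR1-AS set gave 17.47, 17.50 and 17.53 on knockout arrays and 11.97, 12.18 and 12.02 on control arrays, and GPX3 gave 10.31, 10.45 and 10.37 on knockout arrays and 7.84, 7.82 and 7.80 on control arrays. Those values above 16 lie where the deposited scale may be stretched. The most opposite were TSPAN7, a tetraspanin, TFDP1, a partner of E2F factors, SLC47A2, an organic cation exporter, TM4SF1 and TMTC4, with r of -0.998 to -0.999. SLC47A2 gave 5.61, 5.75 and 5.76 on knockout arrays and 10.51, 10.57 and 10.46 on control arrays. Of the 9 other uptake and binding genes, FABP5 alone differed by enough to enter this comparison.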

How the data were processed

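RNA from 3 ERβ knockout and 3 control KPL4 samples was read on Affymetrix arrays, 1 per sample, per the labels. The deposited values are log2 signals. The submitters' processing notes name RMA and Transcriptome Analysis Console, while their versions and the genome build are not given in the sources used here. Since RMA normalizes between arrays, a shift shared by all genes is not visible. Of 134748 probe sets, 35528 carried 1 symbol, 1119 several and 98101 none in the platform annotation, and names were taken from single symbols only (33578 genes). The number of arrays limits the precision.

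Groups were compared with limma 3.58.1 (R 4.3.3), by lmFit and eBayes (two-sided, Benjamini-Hochberg adjusted over all genes), on the probe set of each gene with the highest mean over 6 arrays. The code was tested on simulated data. Genes and lists were chosen with earlier results of these data known. The text names the 10 genes, ESR2, 3 PPAR genes, up to 3 higher and 3 lower called genes per list (or the largest difference where none was called), the 2 nearest bright neighbours of CD36 on each side, and the 5 genes most and 5 least like it. Exceptions are said to have been chosen after their values were seen, or are named as dim markers. The lists held other uptake and binding genes, acyl-CoA synthetases and thioesterases, oxidation, triglyceride and lipid droplet genes, CD36 ligands and partners, other scavenger receptors, PPAR, RXR and LXR genes, and markers of adipocytes, macrophages, platelets, endothelium, muscle and luminal epithelium. Alternatives were repeated quantile normalization, equal array medians, bright genes only, the mean of probe sets, all probe sets, an intensity trend with robust moderation, a replicate block, and each array left out. Promoter windows came from RefSeq (GRCh38.p14).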

Additional observations from a re-analysis of the deposited data

How the results depend on the processing

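The call on FABP5 held under all 13 alternatives run, and the 8 genes other than FABP5 and CD36 were called under none of them. The CD36 difference, by which the set was chosen, was too large for any of these alternatives to turn. Its direction was therefore not tested by them. The number of calls over all genes, 2691 (1614 higher and 1077 lower), was 1160 (682 higher and 478 lower) when all probe sets were tested, a setting that changes the variance moderation along with the number of tests. Repeated quantile normalization turned the balance of directions, with 1251 higher and 1306 lower. Equal array medians narrowed it without turning it, to 1434 higher and 1230 lower. With 1 array left out the number of calls over all genes was 1668 to 2266, with 1008 to 1378 higher and 660 to 925 lower. The cause of these changes and of those below was not tested. With all probe sets tested, the count was 1 for other uptake and binding genes, 1 for acyl-CoA synthetases and thioesterases, 1 for oxidation, 2 for triglyceride and lipid droplet genes, 6 for CD36 ligands and partners, and 1 for other scavenger receptors, and FFAR4 and ACAD9 were among the genes no longer called (adjusted p = 0.061 and 0.067). Among bright genes alone it was 6 for oxidation, 6 for the PPAR, RXR and LXR list, 1 for adipocyte, 2 for muscle and 7 for luminal markers. With an intensity trend and robust moderation it was 5 for other uptake and binding genes, 8 for oxidation, 6 for the PPAR, RXR and LXR list, 1 for adipocyte and 10 for luminal markers. Repeated quantile normalization gave 1 endothelial call, and equal array medians 1 endothelial and 1 platelet call. With 1 array left out, the count ran from 1 to 3 for acyl-CoA synthetases and thioesterases, 2 to 3 for triglyceride and lipid droplet genes, 1 to 2 for other scavenger receptors and 0 to 1 for platelet markers (1 without knockout replicate 1).

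The replicate numbers gave no sign of pairing. Deviations from the group means correlated at -0.02, -0.01 and -0.03 between arrays of the same number and at -0.03 to 0.05 between others. With the replicate number as a block, 2303 genes were called, FABP5 kept its call (adjusted p = 0.0011), and the count was 2 for acyl-CoA synthetases and thioesterases and 1 for other scavenger receptors. Small differences changed sign in some settings. SCARB1 was at -0.088 after quantile normalization, -0.024 with equal medians and -0.094 to 0.063 with 1 array left out. FABP3 was at -0.015, -0.027 and -0.054 to 0.059 in the same settings. PPARD was at -0.025 after quantile normalization and -0.0011 to 0.10 with 1 array left out. With 1 array left out, SLC27A1 ran from -0.16 to 0.039, FABP4 from -0.12 to 0.054, ESR2 from -0.075 to 0.16 and PPARA from -0.23 to 0.073. The filter on dim genes gave no value for FABP3 and FABP4, whose signal limits what can be seen.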
